A study of Mus musculus with 6 samples.

Results

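The genes described are 6 adhesion G protein-coupled receptors (adhesion GPCRs) that were read from macrophages of regenerating mouse muscle. They are Adgre1, Adgre4, Adgre5, Adgrg1, Adgrg3 and Adgrg6, and each was taken as the row of that name among the 54966 features of the deposited expression table. Of these 6, 5 had a mean of at least 1 FPKM (a level per length: fragments divided by the exonic length of the gene and by library depth) and entered the test, and Adgrg3 did not. The cells were wild-type macrophages carrying CD11b and F4/80 and little Ly6C, a profile that the labels call pro-repair. They had been sorted from skeletal muscle 3 days after injury with barium chloride, from young mice (3 libraries) and old mice (3 libraries). The labels name the ages only as young and old or aged, and the sources used state neither the months nor the sex or strain. No label ties a library to an animal of its own, so the spread behind each p-value may be technical in part.

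Adhesion GPCRs join a long extracellular part, often built of adhesion modules, to a membrane-spanning signalling part. Most are cut during maturation just outside the membrane, and a short peptide next to the cut can then act as a built-in agonist. Adgre1 encodes F4/80, the surface protein by which mouse tissue macrophages are recognised, and the gate of this sort used it. Adgre5 encodes CD97, which is found on most leukocytes and binds CD55, and Adgre4 encodes a related receptor of mouse myeloid cells. Adgrg1 (GPR56) and Adgrg3 (GPR97) lie side by side in the genome, and Adgrg6 (GPR126) is best known from Schwann cells, where it is needed for myelination in mouse and zebrafish.

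Positions are those of GENCODE M21 on the GRCm38 genome. Adgre1 (ENSMUSG00000004730) spans chromosome 17 from 57358691 to 57483527 on the plus strand, and Adgre4 (ENSMUSG00000032915) lies on the same chromosome and strand from 55749984 to 55853662. Adgre5 (ENSMUSG00000002885) spans chromosome 8 from 83723251 to 83741326 on the minus strand. Adgrg1 (ENSMUSG00000031785, 94974751 to 95014217) and Adgrg3 (ENSMUSG00000060470, 95017692 to 95045250) lie on the plus strand of chromosome 8. Adgrg6 (ENSMUSG00000039116) spans chromosome 10 from 14402583 to 14545659 on the minus strand. Adgre5 shares 895 exonic bases, 23.8% of its exons, with Ddx39 on the other strand. Whether counting used the strand is not stated in the sources used, so fragments of Adgre5 and Ddx39 may be mixed there.

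The promoter shown is that of Adgre4, the gene with the lowest values in old relative to young. It runs from 250 bases before to 50 bases after the annotated start, comes from RefSeq on GRCm38.p6, and is written in the direction of transcription. The table matched 4 of the 6 genes. The window is chr17:55749734-55750033 on the plus strand. Capitals mark matches to ACCACA or its reverse complement TGTGGT, a core bound by RUNX factors, and to GAGGAA or its reverse complement TTCCTC, a core bound by PU.1.
Adgre4: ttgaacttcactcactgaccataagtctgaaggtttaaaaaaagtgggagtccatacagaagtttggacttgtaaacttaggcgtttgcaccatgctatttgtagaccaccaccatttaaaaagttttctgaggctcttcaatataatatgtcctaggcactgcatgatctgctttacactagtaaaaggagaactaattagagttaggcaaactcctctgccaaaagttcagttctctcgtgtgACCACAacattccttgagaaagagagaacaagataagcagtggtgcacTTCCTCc
The window holds 1 match to each core, the RUNX core at position 246 and the PU.1 core at 294 from its left end. The RUNX core occurs in 16.8% and the PU.1 core in 28.3% of the 32851 promoter windows of 300 bases in the same table. The RUNX core was not found in the windows of Adgrg1, Adgrg3 or Adgrg6, and the PU.1 core was found in that of Adgrg3 and not in those of Adgrg1 and Adgrg6. Both cores were chosen after the sequences and the expression values had been seen, and a match does not show that a factor binds there.

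Depth and labels were checked over the whole table. Between 16543926 and 19400929 fragments per library were recovered from the FPKM values. Macrophage transcripts were high in every library, with Lyz2 at 8102 FPKM or more and Csf1r at 360.1 FPKM or more. Young replicate 1 correlated best with an old library (old replicate 2, r = 0.986 across genes), while each of the other libraries correlated best with one of its own group. The limma test on log2(FPKM + 1), with Benjamini-Hochberg adjustment over 11108 genes, passed 2 genes as higher and 2 as lower in old at an adjusted p below 0.05.

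None of the 5 tested genes passed that threshold in either direction, against a background of 0.036% of all tested genes (0.018% higher and 0.018% lower in old), so every difference below is given as values. Of the 5, 2 had an unadjusted p below 0.05, against 15% of all tested genes: Adgre1 with higher values in old (background 8.84%) and Adgre4 with lower values (background 6.18%). In the same 2 genes the groups did not overlap, against 20.9% of all tested genes (12.3% with old above and 8.59% with old below). The genes were chosen with earlier results of these data known, so the counts are a description. Without young replicate 1, the library nearest to an old one, the log2 changes were 0.29 for Adgre1 and -1.52 for Adgre4, and again neither passed. Exact permutation tests of single genes cannot go below p = 0.1 with 3 libraries against 3.

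The members differed widely in level. In young macrophages the order was Adgre1 (362.4 FPKM), Adgre5 (85.6), Adgre4 (15.4), Adgrg1 (1.22), Adgrg6 (1.09) and Adgrg3 (0.53). In old macrophages Adgre1 (446), Adgre5 (89.0) and Adgre4 (5.62) kept the first places, and Adgrg6 (1.52), Adgrg1 (1.33) and Adgrg3 (0.587 FPKM) followed. Neighbours in this order had ranges that did not overlap, except Adgrg1 and Adgrg6, which overlapped in both groups.

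**Figure D1:**
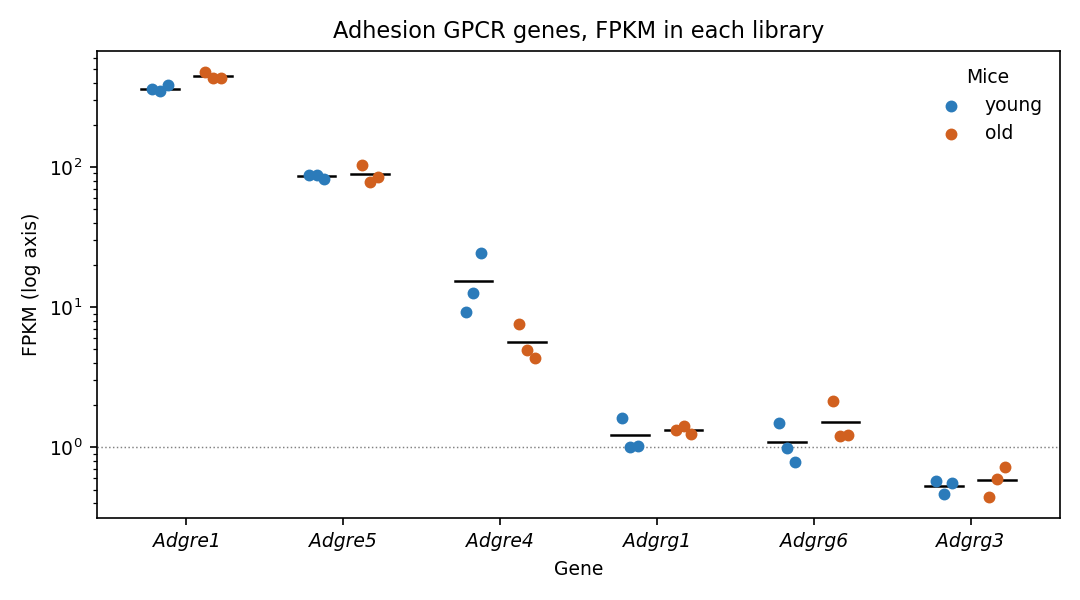
FPKM of the 6 genes (log axis) in the 3 young (blue) and 3 old (orange) libraries, with points for libraries, black bars for group means and a dotted line at the minimum mean of 1 FPKM used for testing. Adgre1 lies highest in both groups, and the young and old points are apart for Adgre1 and Adgre4.

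Adgre1, the F4/80 gene, was the most abundant adhesion GPCR transcript by a wide margin. The young libraries had 357.9, 347.4 and 381.7 FPKM, and the old libraries 476.3, 431.3 and 430.2 FPKM. Every old library was above every young one, with the highest value in old replicate 1. The means were 362.4 ± 17.6 and 446 ± 26.3 FPKM (SD, n = 3 per group), a ratio of 1.23. The log2 change was 0.30 (SE 0.081, 95% interval 0.11 to 0.49, limma unadjusted p = 0.00781, adjusted p = 0.2, exact permutation p = 0.1). Between 18920 and 27571 fragments stood behind each value, so counting error was small beside the spread between libraries.

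The gate selected cells by the proteins of Adgre1 and Itgam, so the levels of these transcripts describe cells already chosen for F4/80 and CD11b. Itgam, which encodes CD11b, had 36.4, 36.9 and 34.3 FPKM in young and 50.9, 41.9 and 49.5 FPKM in old, also without overlap (log2 change 0.39, limma adjusted p = 0.169). The ratio of Adgre1 to Itgam was 9.42 to 11.1 in young and 8.69 to 10.3 in old, and the groups overlapped. Set against Csf1r, the receptor that keeps macrophages alive, Adgre1 was at 0.719 to 0.916 in young and 1.06 to 1.22 in old (exact permutation p = 0.1, the smallest possible). Set against the lysosomal macrophage gene Cd68, its ratio was 0.332 to 0.48 in young and 0.291 to 0.395 in old, with overlap. Csf1r itself had a lower mean in old (453.9 FPKM in young and 385.1 FPKM in old, with overlap). Cd68 had a higher one (956.4 and 1345 FPKM, without overlap). The relative level of Adgre1 between the ages thus differed between these 2 macrophage genes. They belong to a list of 9, all tested, with a median log2 change of 0.16, against 0.01 over all tested genes. Of the 9, 2 had a limma unadjusted p below 0.05 (15% of all tested genes). Ratios of Adgre1 to the other genes of the list were not taken. Of the remaining gate genes, Ly6c2 had 1.31 to 3.20 FPKM in young and 2.46 to 7.68 in old (limma adjusted p = 0.305), and Ly6c1 stayed below 0.5 FPKM in all libraries. All 3 tested gate genes had a limma unadjusted p below 0.05, against 15% of all tested genes.

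Adgre1 supplied most of the family's transcript. Of the summed FPKM of 29 adhesion GPCR genes (these 6 and 23 others), it made up 76.6% to 77.5% in young and 80.1% to 82.8% in old libraries. Adgre5 made up 16.6% to 19.4% in young and 14.9% to 17.5% in old. Adgre4 accounted for 2.01% to 4.92% in young and 0.825% to 1.28% in old. The summed level was 453.6 to 492.6 FPKM in young and 521.1 to 594.7 FPKM in old.

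Adgre5, the CD97 gene, had means of 85.6 FPKM in young and 89.0 FPKM in old. It had 87.3, 88.1 and 81.5 FPKM in young and 104, 77.8 and 85.2 FPKM in old, so the old libraries lay on both sides of the young ones. The log2 change was 0.05 (SE 0.112, 95% interval -0.22 to 0.31, limma adjusted p = 0.884). This interval includes the 0.30 of Adgre1, so a change of that size is not excluded for Adgre5. Its sign turned without old replicate 1 (-0.071) and when values were rescaled to TPM (-0.016). Old replicate 1 was the highest library for Adgre1, Adgre5 and Adgrg6, and the highest old library for Adgre4. Ddx39, the gene that overlaps Adgre5, had 20.3 FPKM in young and 20.7 FPKM in old (log2 change 0.02).

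On the log2 scale Adgre4 had the largest change of the 5 tested genes and the largest standard error. The young libraries had 9.28, 12.7 and 24.2 FPKM and the old libraries 7.59, 4.92 and 4.34 FPKM. Every old value was below every young one, but young replicate 1 and old replicate 1 were close. The means were 15.4 ± 7.84 and 5.62 ± 1.73 FPKM (SD, n = 3 per group), a ratio of old to young of 0.365. The log2 change was -1.23 (SE 0.334, 95% interval -2.03 to -0.44, limma unadjusted p = 0.0078, adjusted p = 0.2). Without young replicate 3, the highest library, it was -0.87. In bulk samples such as these, fewer cells of a type and less RNA per cell cannot be told apart.

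Adgre4 can also be read from blood monocytes and dendritic cells, and markers of such cells were looked at beside it. Of 6 markers of the Ly6C-low blood monocyte, 5 were tested and none passed, against 0.036% of all tested genes. A limma unadjusted p below 0.05 was found for 3 of the 5, against 15% of all tested genes. Their summed level was 207.6 to 236.9 FPKM in young and 185 to 219.8 FPKM in old, and most of it was Nr4a1, which macrophages also make. Single markers went different ways, with Treml4 at 4.67 and 2.59 FPKM and Cd300e at 1.31 and 4.24 FPKM in young and old. Of 7 dendritic cell markers, 5 stayed under 1 FPKM in every library and none was at 0 throughout. Of these 7, 2 were tested, and 1 had a limma unadjusted p below 0.05. Their sum was 7.38 to 9.90 FPKM in young and 3.17 to 8.16 FPKM in old. The highest by mean, Cd209a, had 3.83 to 5.12 FPKM in young and 1.47 to 3.43 FPKM in old (log2 change -0.82, limma adjusted p = 0.2). The part of these cells in the Adgre4 values was not tested.

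The genes whose profile over the 6 libraries was nearest to that of Adgre4, among 9469 protein-coding genes, were Cd4, Tmem176a and Tmem176b. Nearness was the root mean square difference of log2(FPKM + 1) after removal of each gene's mean, and it was 0.089 for Cd4, 0.089 for Tmem176a and 0.125 for Tmem176b, where Adgre4's own deviations had a root mean square of 0.756. Cd4, a co-receptor known from helper T cells and also made by some myeloid cells, had 4.30, 7.26 and 12.8 FPKM in young and 3.87, 2.35 and 2.33 FPKM in old. Like Adgre4, it was highest in young replicate 3, which the choice by nearness favours. Tmem176a, which encodes a membrane protein, had 14.3, 21.4 and 42.1 FPKM in young and 13.9, 9.75 and 8.09 FPKM in old. Tmem176b, its close relative, had 40.2 FPKM in young replicate 1 and 43.5 FPKM in old replicate 1, so its groups overlapped. The T cell genes Cd3e and Cd3g were at 0 in all 6 libraries. Cd3d had 0.066 FPKM in young replicate 2, 0.032 FPKM in old replicate 2 and 0 elsewhere. The part of T cells in the Cd4 values was not tested. For Adgre1, the nearest profiles were those of Zc3h8 (0.028), Dagla (0.030) and Ip6k2 (0.039), against a root mean square of 0.162 for Adgre1 itself. All 3 were far less abundant than Adgre1, with means between 1.81 and 4.55 FPKM. The log2(FPKM + 1) scale understates changes at such levels. In FPKM their ratios of old to young were 1.42, 1.36 and 1.30, against 1.23 for Adgre1.

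**Figure D2:**
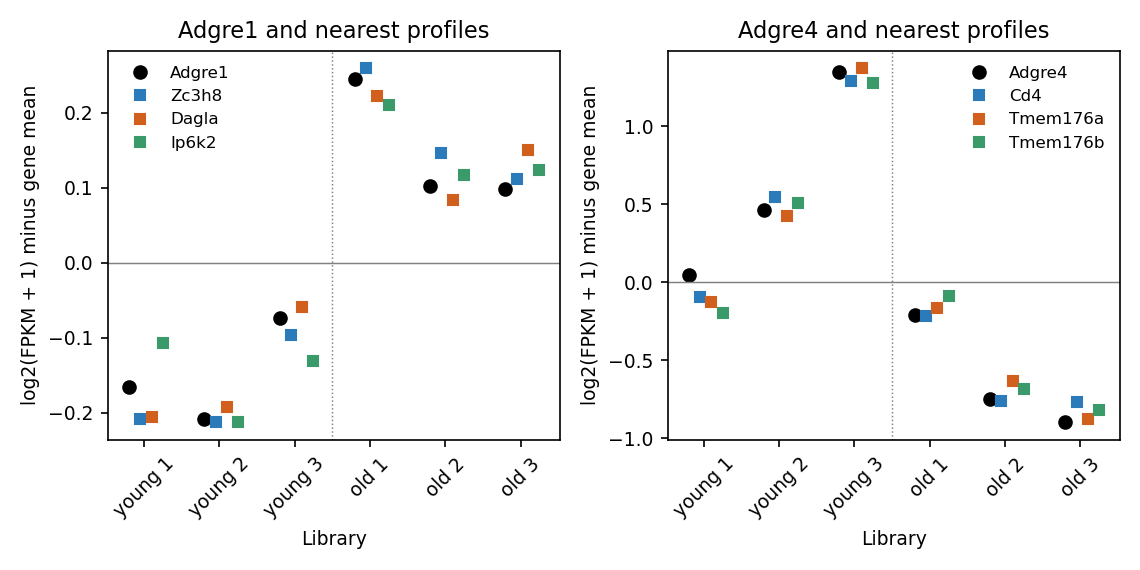
Deviation of log2(FPKM + 1) from each gene's own mean (y axis) in the 6 libraries (x axis, young left of the dotted line) for Adgre1 (left) and Adgre4 (right), each in black, and the 3 genes of nearest profile in colour. In the right panel all 4 genes are highest in young replicate 3, and in the left panel all 4 are highest in old replicate 1. The genes were picked for likeness over these libraries, so a shared highest library follows from the choice.

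**Figure D3:**
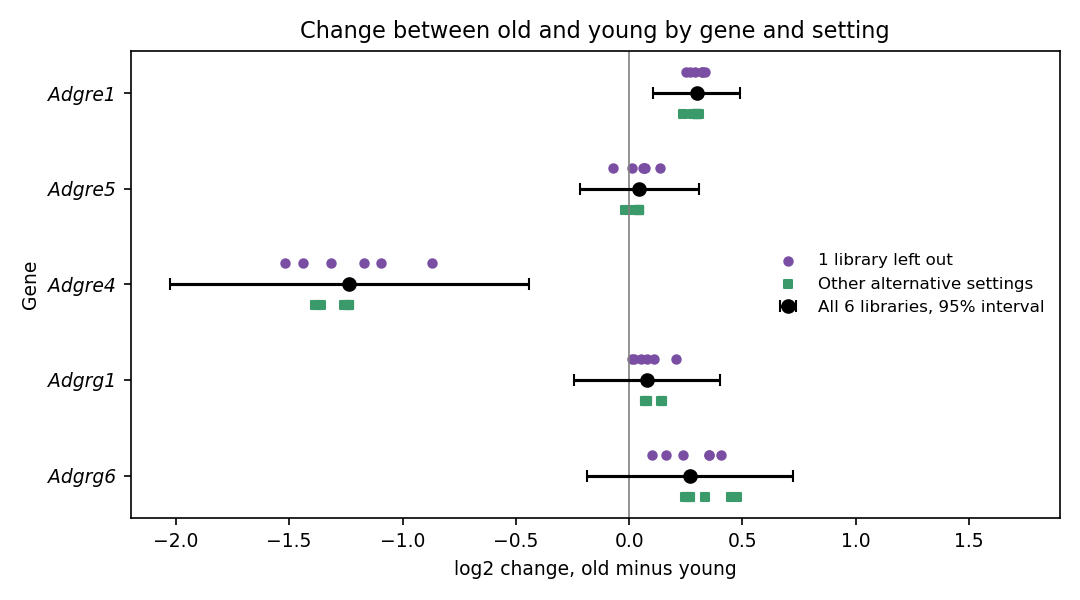
The log2 change in old minus young (x axis) of the 5 tested genes: black points and bars are the values over all 6 libraries with 95% intervals, purple points leave out 1 library each, and green squares are the other alternative settings. Values of Adgre4 reach from -1.52 to -0.87 and those of Adgre5 lie on both sides of 0.

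Adgrg1 and Adgrg3, which follow each other on the same strand, were both low and overlapped between the ages. Adgrg1, whose product binds collagen III in the developing brain and pairs with the tetraspanins CD81 and CD9, had 1.63, 1.01 and 1.03 FPKM in young and 1.33, 1.42 and 1.24 FPKM in old. The old libraries fell inside the young range, and the log2 change was 0.08 (SE 0.136, 95% interval -0.24 to 0.40, limma adjusted p = 0.82). Adgrg3, best known from human granulocytes, had 0.572, 0.465 and 0.553 FPKM in young and 0.446, 0.597 and 0.719 FPKM in old, with 54 to 91 fragments per library. Without the minimum of 1 FPKM its log2 change was 0.05 (limma adjusted p = 0.867). The ratio of Adgrg1 to Adgrg3 was 1.86 to 2.84 in young and 1.72 to 2.99 in old, with overlap (exact permutation p = 0.9).

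Genomic neighbours of the genes that differed most were read as well, and were named after their values had been seen. Pot1b, which borders Adgre4, had 7.17 FPKM in young and 5.25 FPKM in old (log2 change -0.38, limma adjusted p = 0.204), and its groups did not overlap. Zfp119a, on the other side of Adgre4, had a log2 change of -0.03. Vav1, which borders Adgre1, was at 0.04.

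Adgrg6, which responds to collagen IV, laminin and the prion protein in nerve, was low and variable. It had 1.49, 0.982 and 0.783 FPKM in young and 2.15, 1.21 and 1.22 FPKM in old, with 163 to 469 fragments per library. The groups overlapped, and the log2 change was 0.27 (SE 0.192, 95% interval -0.18 to 0.72, limma adjusted p = 0.563). Without old replicate 1, the highest library, it was 0.10. Of 5 Schwann cell markers, 4 stayed under 1 FPKM in every library, among them Sox10. Their sum was 7.62 to 8.54 FPKM in young and 7.49 to 7.98 FPKM in old, nearly all of it Mbp, which blood cells also make. The part of other cells in the Adgrg6 values was not tested.

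Markers of further cell types were read beside the low members, and no tested marker of any list passed (0.036% of all tested genes did). At a limma unadjusted p below 0.05, against 15% of all tested genes, were 3 of 5 tested Ly6C-high monocyte and 2 of 4 neutrophil markers. The counts were 2 of 3 for muscle, 1 of 3 for endothelial and 1 of 1 for fibroblast markers. They were 0 of 1 each for B cell, eosinophil and Schwann cell markers. All 10 T and NK cell markers were below 1 FPKM, with Cd3e, Cd3g, Ncr1 and Gzmb at 0 in every library, and their sum was 0.312 to 0.519 FPKM in young and 0.456 to 0.589 FPKM in old. Of 6 eosinophil markers 5 stayed under 1 FPKM, and the sum was 1.85 to 2.12 FPKM in young and 1.1 to 2.15 FPKM in old. Of 9 neutrophil markers 4 were tested, and the list summed to 39.8 to 45.4 FPKM in young and 46.1 to 64.4 FPKM in old, mostly Csf3r, with Ly6g at 0 throughout. Of 6 markers of Ly6C-high monocytes 5 were tested, and the list summed to 152.7 to 155.4 FPKM in young and 174.6 to 263.6 FPKM in old. The sums of these 2 lists were higher in each old library, as were Adgre1 and Itgam, but single markers differed in direction. Chil3 (59.7 and 98.7 FPKM in young and old) and F13a1 (42.8 and 57.7 FPKM) made up most of the monocyte sum. Plac8 (10.9 and 18.3 FPKM) and Ly6c2 also had higher means in old. Ccr2, with 37.6 and 24.9 FPKM, was the only tested marker of that list with a lower mean in old. In the neutrophil list Csf3r (34.8 and 40.4 FPKM), Mmp8 (5.47 and 13.8 FPKM) and S100a8 (1.23 and 2.12 FPKM) had higher means in old. Retnlg, the remaining tested neutrophil gene, had 1.65 and 0.532 FPKM. The gate took cells with little Ly6C, and the part of Ly6C-high monocytes and neutrophils in the Adgre1 values was not tested. Of 5 B cell markers 1 was tested, and the list summed to 6.22 to 9.79 FPKM in young and 3.72 to 6.55 FPKM in old, mostly Cd79b. Of 5 fibroblast markers 1 was tested, and the list summed to 1.97 to 3.82 FPKM in young and 0.741 to 1.53 FPKM in old, and the 7 muscle markers, 3 of them tested, to 8.25 to 12.3 and 3.27 to 6.32 FPKM. Both sums were lower in each old library, as was Adgre4, and the part of such cells in the Adgre4 values was not tested. Acta1 (5.26 and 2.33 FPKM in young and old) was the highest muscle marker. Ckm (0.27 and 0.301 FPKM) and Myh4 (0.023 and 0.0592 FPKM) had higher means in old, and the other muscle markers lower ones. Of 5 endothelial markers 3 were tested, and the list summed to 5.99 to 7.29 FPKM in young and 4.20 to 9.19 FPKM in old. Pecam1 was lower in each old library (means 2.41 and 1.35 FPKM in young and old, log2 change -0.53, limma adjusted p = 0.104). Cdh5 also had a lower mean in old, with overlap (log2 change -0.24). Kdr had a higher one, with overlap (2.97 and 4.46 FPKM). Tek and Emcn, under 1 FPKM in every library, had lower means in old. The part of endothelial cells in the Adgre4 values was not tested.

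The rest of the family was low. Of the 23 other adhesion GPCR genes, 22 stayed under 1 FPKM in every library and 4 (Adgra1, Adgrb3, Adgrg2 and Adgrg4) had no fragment in any. Adgrl2, a latrophilin, was the only one tested, with 1.2 ± 0.293 FPKM in young and 1.49 ± 0.129 FPKM in old (log2 change 0.19, limma adjusted p = 0.553). The 23 genes together made up 0.49% to 0.811% of the family's summed FPKM.

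Ligands and partners of these receptors were present to very different degrees. Cd55, the ligand of CD97, was at 0.191 FPKM or less in every library. Tgm2, whose product binds the Adgrg1 protein, had 144.9 FPKM in young and 142.4 FPKM in old (log2 change -0.02). Of 15 ligand and partner genes, 9 were tested and 0 passed in either direction, with 3 at an unadjusted p below 0.05 (15% of all tested genes) and a median log2 change of 0.10, against 0.01 over all tested genes. Those of smallest p were Col4a1, a collagen IV chain (2.19 and 1.13 FPKM, log2 change -0.58, limma adjusted p = 0.144), the integrin genes Itgav (26.1 and 32.7 FPKM, 0.32, adjusted p = 0.197) and Itgb1 (137.8 and 160 FPKM, 0.21, adjusted p = 0.323), and the plexin gene Plxnb2 (91.1 and 101.5 FPKM, 0.15, adjusted p = 0.376). The products of Itgav and Itgb1 form integrins that CD97 can bind.

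All 13 genes for G proteins and their effectors were tested and 0 passed, with 1 at an unadjusted p below 0.05 (15% of all tested genes) and a median log2 change of 0.09, against 0.01 over all tested genes. Gna12 and Gna13, through which many adhesion GPCRs reach RhoA, had log2 changes of 0.01 and -0.02. The smallest p values were those of Gnai3 (48.8 and 56 FPKM in young and old, 0.20, limma adjusted p = 0.301), Rhoa itself (57.5 and 63.7 FPKM, 0.15, adjusted p = 0.422), Arrb1 (0.13) and Arhgef12 (0.17).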

How the data were processed

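RNA was measured in 6 libraries of sorted muscle macrophages, 3 young and 3 old, grouped by their titles. The authors deposited 1 table of FPKM per gene. The submitters' processing notes name the build GRCm38.p6. No aligner, counting tool, annotation release or strand setting is named in the sources used. FPKM are relative to a library depth, so a level is not an absolute amount. The depth implied by the FPKM was below the recovered fragments in every old library and above them in every young one. In old replicate 1 it was 17877487 against 18746884, and in young replicate 1 it was 18495963 against 18353690. Relative to shares of the recovered fragments, FPKM were therefore slightly higher in old and slightly lower in young. Voom used the same implied depths.

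FPKM multiplied by exon-union length (GENCODE M21, 54495 identifiers matched) gave whole fragments within 0.02 in 97.5% to 97.6% of values below 200 fragments. Genes averaging 1 FPKM or more over the 6 libraries (11108) were fitted on the log2(FPKM + 1) scale, old against young, with a mean-variance trend (limma 3.58.1, R 4.3.3). The p-values are two-sided and Benjamini-Hochberg adjusted over all tested genes, with a threshold of 0.05. The log2(FPKM + 1) scale understates the change of low genes. The fit was tested on simulated data. Single values were also tested by exact two-sided permutation. Python 3.11.15 with numpy 2.4.6 and pandas 2.3.3 was used.

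Results of 1 further gene of the set, and of some list genes, are not reported here. The members, the lists and the rules were chosen with earlier results of these data known. Besides the members, the text names other adhesion GPCR genes above 1 FPKM, the 4 genes of smallest p in the lists of partners and of G proteins, the gate genes, the 3 nearest profiles of Adgre1 and of the tested member with the largest change, and the highest genes of marker lists. Genomic neighbours, other markers and list members given as examples were named after their values were seen. Alternatives were a pseudocount of 0.1, no filter, a minimum of 5 FPKM, median-of-ratios scaling, TPM, array weights, voom on recovered fragments, the replicate number as a block, and each library left out.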

Additional observations from a re-analysis of the deposited data

How the results depend on the processing

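The counts of called genes depended strongly on the setting. With all 6 libraries 2 genes were called higher and 2 lower. The counts were 0 and 0 with a pseudocount of 0.1, with no filter, at a minimum of 5 FPKM and with the replicate block, 30 and 20 with array weights, and 27 and 14 with voom on recovered fragments. With 1 library left out they ranged from 0 to 6 higher and from 0 to 9 lower, the highest without young replicate 1 and 0 without any of the other 5. Adgre5, not called, changed sign when rescaled to TPM (-0.016), with array weights (-0.00081) and without old replicate 1 (-0.071), and leaving out 1 library gave -0.071 to 0.14. Adgre1 (0.24 to 0.34), Adgre4 (-1.52 to -0.87), Adgrg1 (0.01 to 0.21) and Adgrg6 (0.10 to 0.47) kept their sign under all settings that gave a value and passed under none. Adgrg3 was -0.01 without old replicate 3. A minimum of 5 FPKM left Adgrg1, Adgrg3 and Adgrg6 without a test, and Adgrg3 was tested only without the filter. Rescaling to TPM moved the median of all genes to -0.04 and gave Adgre1 its lowest value, 0.24 (limma unadjusted p = 0.0271, adjusted p = 0.261). The replicate numbers share no stated animal or batch. Deviations from the group means correlated at 0.03, 0.05 and 0.04 between same-numbered libraries, each the best partner across groups, and with the replicate block the limma adjusted p was 0.271 for Adgre1 and 0.276 for Adgre4. Depth limits Adgrg3 most, at 54 to 91 fragments per library, and fragment counts cover counting error only.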
